A study of Arabidopsis thaliana with 7 samples.

Results

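The genes described here are the protein-coding genes of the 5 *Arabidopsis thaliana* pericentromeres that were listed as lying near a FAIRE peak of the *msh1* memory line. They were taken by locus number, which broadly follows position along each chromosome, with local exceptions. The stretches ran from AT1G35000 to AT1G44000, AT2G05000 to AT2G14000, AT3G30000 to AT3G44000, AT4G04000 to AT4G09000 and AT5G28000 to AT5G36000. They held 323 of the 2600 genes listed anywhere in the genome, out of 1291 protein-coding genes in the stretches and 27444 in the nuclear genome. FAIRE (formaldehyde-assisted isolation of regulatory elements) recovers DNA that stays in the aqueous phase after crosslinking because little protein is bound to it. Whole rosettes of Columbia-0 seedlings were used, raised on MS medium (24 °C, 12 h light and 12 h dark) and taken at 14 days. The crosslinked plants sequenced were replicates 2 and 3 of the wild type (2 plants) and replicates 1, 2 and 3 of the *msh1* memory line (3 plants). Memory plants are transgene-free offspring of plants silenced for *MSH1*, a gene for organelle genome stability. Pools of 3 decrossed plants per genotype were a technical control and were not analysed here. The authors compared every memory plant with both wild type plants, coded C2 and C3, and joined peaks to genes up to 2 kb away on either side, which gave 6 gene lists. The labels do not say which wild type replicate is C2. A list entry is presence or absence, the depth of the libraries is unknown, and 1 memory and 1 control library stand behind each list. Replicate error could therefore be read only from how the 6 lists differ, and lists that share a library are not independent.

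Pericentromeres are the regions that flank the centromeres. In *Arabidopsis* they are poor in genes, rich in transposons and other repeats, densely methylated, and packed as heterochromatin, which keeps most transposons silent. Genes embedded in them can still be expressed, and many lie at a distance from their neighbours with repeats in between. The pericentromere of chromosome 2 also carries a large insertion of mitochondrial DNA, so that many of its annotated loci are near-copies of mitochondrial genes.

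The sequence that members in all 6 lists had most often in common was a dispersed repeat, called repeat A here, and it is printed first because the results below return to it. It was found after the lists were known, as the 31-base word (31-mer) held by the windows of the most members in all 6 lists, with a window being the gene and 2 kb on both sides. That 31-mer was in the windows of 10 of the 93 members in all 6 lists and had 78 copies in the nuclear genome, whose flanks gave a consensus of 596 bases. The first line gives the 100 consensus bases on which the copies agreed best (mean agreement 94.9%). The other lines give 1 genomic copy per chromosome beside a member in all 6 lists, 5′ to 3′ in the orientation of the consensus, with capitals at bases that differ from it. In TAIR10.1 coordinates the copies lie at chr1:16396659-16396758 (minus strand), chr2:2375158-2375257 (minus), chr3:13142922-13143021 (plus), chr4:5402031-5402130 (plus) and chr5:10088441-10088540 (minus). None of the 5 printed stretches overlapped an annotated protein-coding gene.
Consensus of repeat A: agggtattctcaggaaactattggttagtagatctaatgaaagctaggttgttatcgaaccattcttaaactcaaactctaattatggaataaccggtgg
Copy beside Aty2 (AT1G43560): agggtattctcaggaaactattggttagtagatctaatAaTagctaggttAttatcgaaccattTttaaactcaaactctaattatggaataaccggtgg
Copy beside AT2G06095: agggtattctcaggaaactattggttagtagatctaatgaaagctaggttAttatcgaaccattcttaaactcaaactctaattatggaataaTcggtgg
Copy beside AT3G32150: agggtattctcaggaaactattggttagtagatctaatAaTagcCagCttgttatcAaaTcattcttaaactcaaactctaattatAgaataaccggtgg
Copy beside MEKK1 (AT4G08500): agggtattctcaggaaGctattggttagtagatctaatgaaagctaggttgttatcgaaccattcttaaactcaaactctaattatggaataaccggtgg
Copy beside WNK9 (AT5G28080): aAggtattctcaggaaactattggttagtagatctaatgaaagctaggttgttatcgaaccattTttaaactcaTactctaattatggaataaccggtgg

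The label was first checked against the annotation. Between its first and last listed gene each stretch spanned 3.78 to 4.10 Mb, at chr1:12877107-16657686, chr2:1799234-5864614, chr3:11921096-15785184, chr4:1931883-5777481 and chr5:10035543-14138647. The stretches held 63.9 protein-coding genes per Mb, against 263 in the rest of the nuclear genome. Of the 5451 loci annotated in them, 3042 were pseudogenes. Low gene density and many pseudogenes are what the name of pericentromere stands for. Chromosome 2 was the densest stretch, at 87.6 protein-coding genes per Mb, followed by chromosome 4 at 74.1, against 49.7 on chromosome 3. Of the 356 protein-coding genes in the span of chromosome 2, 94 lie in the 264 kb of the mitochondrial insertion. Densities are means over whole stretches and were not computed for parts of one.

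Listed genes were more frequent in the stretches than elsewhere. In the stretches 323 of 1291 protein-coding genes (25.0%) were in at least 1 list, against 2277 of 26153 (8.71%) outside, a ratio of 2.87, where the share over all genes was 9.47%. For genes in all 6 lists, 93 of the 1291 (7.20%) compared with 333 outside (1.27%), a ratio of 5.66, with 1.55% over all genes. The stretches thus held 4.70% of the protein-coding genes, 12.4% of the listed genes and 21.8% of the genes in all 6 lists. Genes have no read counts here and neighbours share peaks, so these shares are descriptions and were not tested.

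The difference held in each list taken alone. Over all protein-coding genes memory plants 1, 2 and 3 had 5.86%, 4.72% and 4.42% listed against C2, and 4.76%, 3.84% and 3.55% against C3. Of the 1291 stretch genes, the lists against C2 held 222, 174 and 185 and the lists against C3 held 191, 156 and 163. As a share of stretch genes that was 12.1% at the lowest (plant 2 against C3) and 17.2% at the highest (plant 1 against C2), and the share of outside genes ran from 3.10% to 5.30%, so the ranges over lists did not overlap. Within a list the ratio of stretch to outside share was between 3.14 and 4.08. It was highest for plant 3 against C3, the shortest list, and lowest for plant 2 against C2.

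**Figure D1:**
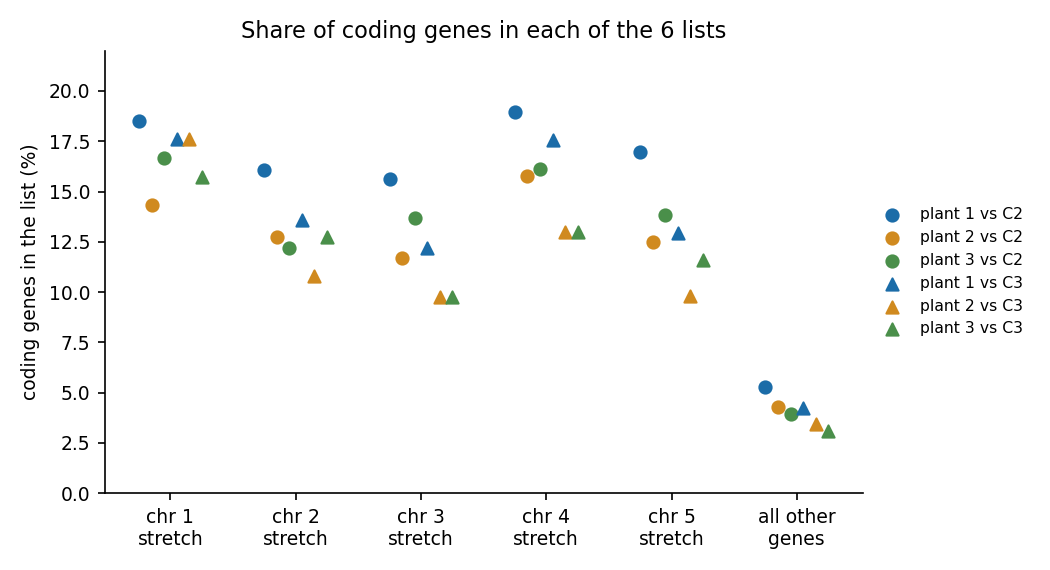
Percent of protein-coding genes in each of the 6 lists, for the 5 stretches and for all other genes; colour marks the memory plant and shape the control (circle C2, triangle C3). Every stretch point, from 9.76% to 18.9%, lies above every point of the other genes, which reach 5.30%.

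All 5 stretches had a higher listed share than the genes outside. The listed share was 28.8% on chromosome 4 (82 of 285 genes), 27.3% on chromosome 1 (59 of 216), 25.0% on chromosome 5 (56 of 224), 22.4% on chromosome 3 (46 of 205) and 22.2% on chromosome 2 (80 of 361). In single lists the stretch of chromosome 3 ranged from 9.76% to 15.6% and that of chromosome 4 from 13.0% to 18.9%. These ranges overlapped because the lists differ in length, whereas within each of the 6 lists chromosome 4 was above chromosome 3, and chromosomes 1 and 4 had the highest shares. The locus numbers that bound the stretches are a choice. In the 1000 locus numbers just inside each bound, 167 of 719 genes (23.2%) were listed, and in the 1000 just outside, 145 of 885 (16.4%). The share was lower outside at 8 of the 10 bounds, most at the high bound of chromosome 4 (31.5% inside and 15.8% outside). It was higher outside at the high bound of chromosome 2 (23.1% inside and 27.8% outside) and the low bound of chromosome 3 (15.6% and 20.7%).

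Recurrence over lists was higher for the members than for other listed genes. Members in all 6 lists made up 28.8% of the 323, against 14.6% of the 2277 outside, and members in a single list made up 24.5% (79 genes) against 32.2% (734 genes). The remaining members were in 2 lists (64 genes), 3 (39), 4 (31) and 5 (17). The median was 3 lists per member and 2 per listed gene outside. By stretch, all 6 lists held 22 genes on chromosome 1 (37.3% of its members), 26 on chromosome 2 (32.5%), 21 on chromosome 4 (25.6%), 14 on chromosome 5 (25.0%) and 10 on chromosome 3 (21.7%). Chromosome 1 had a median of 4 lists per member, and the other stretches had a median of 3.

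**Figure D2:**
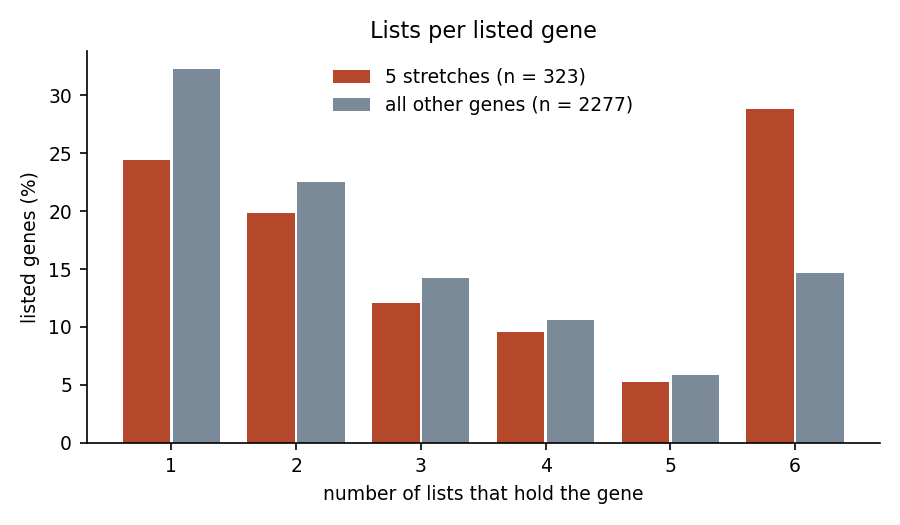
Percent of listed genes by the number of lists that hold them, for the 323 members and for the 2277 listed genes outside the stretches. The bars fall from 1 list to 5 lists in both groups and rise at 6 lists, to 28.8% for members and 14.6% outside.

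The 2 controls and the 3 memory plants contributed unequally. Of the members, 195 (60.4%) were listed against both controls, whereas 48.2% of listed genes outside were. Listed against C2 alone were 76 (23.5%, against 32.2% outside), and against C3 alone 52 (16.1%, against 19.5% outside). All 3 memory plants listed 147 members (45.5%, against 36.1% outside), though not always against the same control. A single memory plant accounted for 110 members (34.1%, against 42.3% outside), 64 of them plant 1, 23 plant 2 and 23 plant 3. Of the 64 genes of plant 1 alone, 20 were listed against both controls. Plant 1 also had the longest list against either control, and depth is unknown for every library.

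The protein-coding genes within 2 kb of repeat A were all listed. The genome held 183 copies of the repeat, counted as places with at least 20 different 17-mers of the consensus, with 35 to 41 copies per chromosome, and 174 of them (95.1%) lay inside the spans of the stretches. Within 2 kb of a copy there were 25 protein-coding genes, 24 of them in the stretches, and all 25 were listed, 19 in all 6 lists. From 2 to 3 kb, 1 of 10 genes was listed, and from 3 to 5 kb, 5 of 21. The lists take in genes up to 2 kb from a peak, so peaks at the copies of any sequence would give a fall at that distance. The repeat was chosen for its presence within 2 kb of genes in all 6 lists, so the 19 such genes, and with them the excess within 2 kb and its fall at that distance, are in part fixed by that choice. Unlisted genes and genes in fewer lists were not used in choosing it, but they are no independent support. Lists share libraries, and of the genes in fewer lists AT5G28919 and AT5G28920 overlap each other beside the same copy. With a looser copy definition (5 consensus 17-mers) 32 of 34 genes within 2 kb were listed, so a full share depends on the cut-off.

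**Figure D3:**
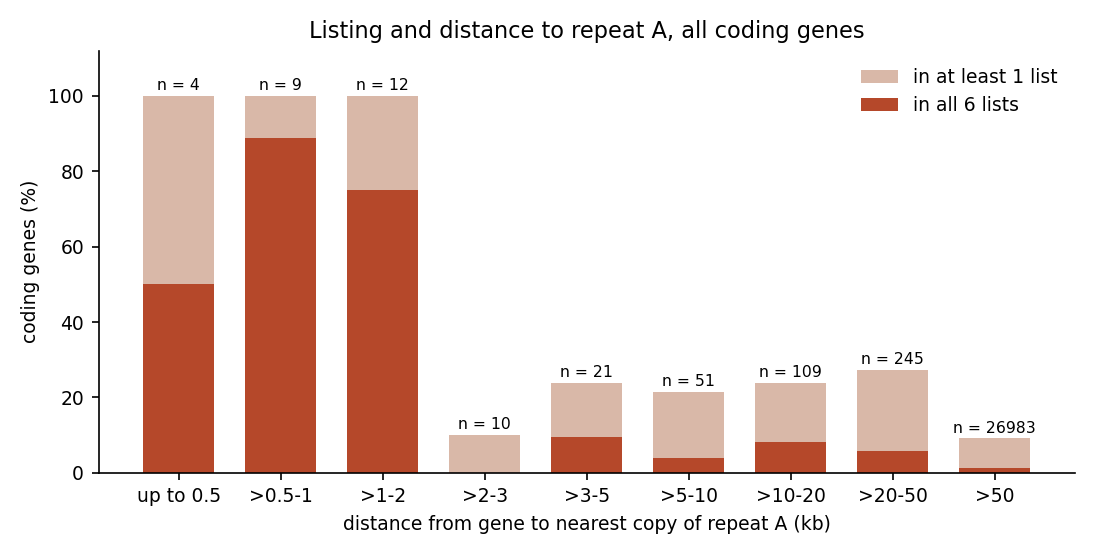
Percent of protein-coding genes in at least 1 list (light) and in all 6 lists (dark) by distance to the nearest of the 183 copies of repeat A, over the whole nuclear genome, with the number of genes above each bar. All 25 genes within 2 kb were listed, 1 of 10 between 2 and 3 kb was listed, and beyond 50 kb the share was 9.14%.

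The genes beside repeat A came from all 5 stretches. On chromosome 1 they were AT1G39070, AT1G42080, AT1G42710, AT1G43415 and *Aty2*, a plastid thioredoxin, each in all 6 lists. Chromosome 2 had AT2G06095, AT2G11851 and AT2G13720, also in all 6. On chromosome 3, AT3G32150 and AT3G32896 were in all 6 lists, AT3G33187 in 4 and AT3G30460 in 1. On chromosome 4, AT4G08028 and *MEKK1* were in all 6 and AT4G08485 in 2. Chromosome 5 had *WNK9*, AT5G28590, AT5G28690, AT5G29070, AT5G32670, AT5G33898 and AT5G34908 in all 6, and AT5G28919 and AT5G28920 in 2. The 1 such gene outside the stretches, AT4G09440, was in 2 lists. AT4G08485 and AT3G30460, at 1941 and 1816 bp from their copies, were the farthest of these genes from the repeat.

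Copies of repeat A differed in how much of their sequence was repeated. A median of 50.1% of the 31-mers of a copy occurred elsewhere in the nuclear genome, and for the 24 copies within 2 kb of a gene the share ran from 9.70% to 100%. How reads with several equally good places were treated is not given in the sources used here, and the part of such reads in the listings was not tested. Most copies, 159 of 183, lay farther than 2 kb from any protein-coding gene, where a peak could enter no list.

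The same search was run for 3 further repeats, each time without the genes near the repeats already found. They had 10, 6 and 12 genes within 2 kb of a copy, of which 9, 4 and 10 were listed and 5, 4 and 8 were in all 6 lists. At least 1 of the 4 repeats lay within 2 kb of 34 of the 93 members in all 6 lists (36.6%), of 10 of the 230 members in fewer lists (4.35%) and of 3 of the 968 unlisted stretch genes (0.310%). Outside the stretches, 4 protein-coding genes were this close to any of the 4 repeats. The share for members in all 6 lists was again fixed in part by the way the repeats were chosen.

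Repeats of any kind were also more abundant around members. A median of 8.005% of the 31-mers in a member's window occurred more than once in the nuclear genome (quartiles 2.12% and 17.6%), against 13.5% for members in all 6 lists and 4.78% for unlisted genes of the stretches. Outside the stretches the medians were 0.903% for listed and 0.330% for unlisted genes. The listed share was higher inside than outside in each class of this measure, though it did not rise from each class to the next. Among windows with no repeated 31-mer, 13.2% of 38 stretch genes and 6.16% of 6524 other genes were listed. In all 6 lists were 0 of the former and 0.981% of the latter, and in each class with repeats that share was higher inside. In the class above 5% and up to 20%, 29.5% of 448 stretch genes and 14.1% of 3270 other genes were listed. Above 20% and up to 50%, the listed genes were 51 of 170 inside and 17.1% of 713 outside, and above 50% the shares were 30.5% of 59 and 11.1% of 271, so outside the stretches the share was lower in the last class. Inside, it was 21.8% in the class above 0% and up to 1%, and 19.5% in the class above 1% and up to 5%. GC content differed little, with medians of 35.0% for members, 35.0% for unlisted stretch genes and 36.5% for listed genes outside.

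Pooled over the stretches, members stood farther apart than other genes. The summed distance to the next protein-coding gene on either side had a median of 16066 bp for members, 26553 bp for members in all 6 lists and 9693.5 bp for unlisted stretch genes, against 2261 bp for listed genes outside. Where this space was at most 2 kb, 13.3% of 158 stretch genes and 7.36% of 14240 other genes were listed. In all 6 lists were 0.633% of the former and 0.892% of the latter, and in each wider class that share was higher inside. Where the space was above 16 kb, 30.9% of 524 stretch genes and 19.9% of 291 other genes were listed. More than 4 kb of space on each side was found for 340 stretch genes, of which 34.7% were listed and 13.8% were in all 6 lists, and for 430 genes outside, of which 15.3% were listed and 3.26% were in all 6. Members were also longer than unlisted stretch genes, with pooled medians of 2009 bp and 1387 bp. Chromosome 3 alone went the other way on both measures. Its median space was 18411.5 bp for members and 19566 bp for unlisted genes, and its median lengths were 1247.5 bp and 1332 bp. Spacing, length and repeats moved together with listing, and their separate parts were not tested.

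**Figure D4:**
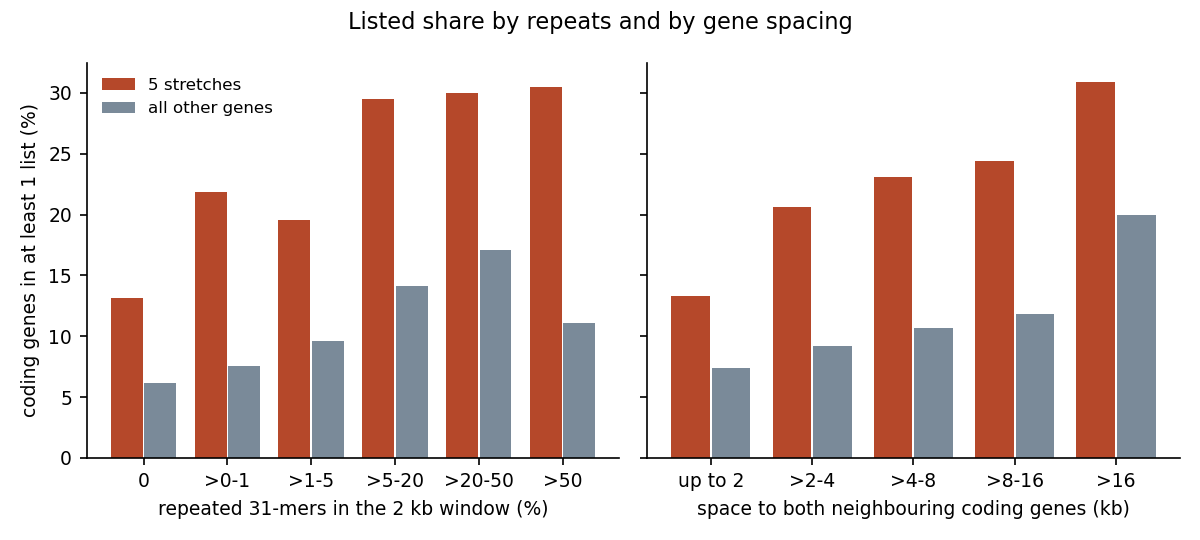
Percent of protein-coding genes in at least 1 list, by the share of repeated 31-mers in the window (left) and by the summed distance to the next protein-coding gene on either side (right), for the stretches and for all other genes. In each class the stretch bar is the higher, from 13.2% to 30.9% inside and from 6.16% to 19.9% outside.

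Of the 323 members, 163 had another protein-coding gene within 2 kb, and for 45 of these (27.6%) a neighbour this close was listed too, against 144 of the 615 unlisted stretch genes with such a neighbour (23.4%). Outside the stretches the same share was 25.9% for listed and 11.5% for unlisted genes. A close listed neighbour was thus about as frequent for unlisted as for listed genes inside, and less frequent for unlisted genes outside, which was not tested. The longest run of consecutive listed protein-coding genes was on chromosome 1, where AT1G39070, AT1G40083, AT1G40086, AT1G40087, AT1G40090 and AT1G40104 were each in all 6 lists over 352 kb. These genes lie far apart, and the repeated share of their windows was between 28.8% and 95.7%. Their most widely held 31-mer, in the windows of 4 of the 6 genes, had 251 copies in the nuclear genome, and 2 unlisted stretch genes held it as well, so the calls on these genes are uncertain. Other runs were shorter. On chromosome 2, AT2G05760, AT2G05786, AT2G05790, AT2G05810 and AT2G05830 were in 1 to 4 lists over 51.4 kb, and on chromosome 5, AT5G28210, AT5G28220, AT5G28235 and AT5G28237 were in 1 or 2. On chromosomes 3 and 4 the longest runs had 3 genes, with 3 such runs on either. They included, on chromosome 3, the run of AT3G32896, AT3G32904 and AT3G32920, of which the first 2 were in all 6 lists, and that of AT3G42155, AT3G42160 and *DAYSLEEPER* (AT3G42170), in 3 to 6 lists. On chromosome 4 they included AT4G08310, AT4G08320 and AT4G08330, in 1 to 4 lists, and AT4G08485, *MEKK1* and AT4G08510, in 1 to 6.

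Transposon-like products were few, and each gene in the 6 lists was annotated as protein-coding, with 0 pseudogenes among them. Whether the authors' gene set held pseudogenes or transposon loci is not given in the sources used here. A gene set of protein-coding genes alone would give 0 pseudogenes and few transposon-like products, so neither is read as a result about peaks. A word list of transposon terms matched the description of 7 members (2.17%), against 5 of the 2277 listed genes outside (0.220%). Descriptions came with listed genes only. Transposon terms were not counted in the RefSeq products, which cover unlisted genes too. Whether the difference is particular to members or common to the stretches is therefore not known. AT1G40087 and AT4G04265, both PttA/En/Spm transposases, which cut and paste DNA elements, were in all 6 lists, as was AT1G43730, related to reverse transcriptases, which copy RNA into DNA. AT2G06105, with a gag-polyprotein aspartyl protease domain, was in 4 lists, from plants 1 and 3 against both controls. AT2G11035, with a reverse transcriptase zinc-binding domain, was in the 2 lists of plant 1, and AT2G13500, a Ta11-like non-LTR retroelement protein, and AT4G05095 were in the list of plant 1 against C2. Without plant 1 the count was 4. By stretch the 7 were 2 on chromosome 1, 3 on chromosome 2 and 2 on chromosome 4, with 0 on chromosomes 3 and 5. The word list misses *DAYSLEEPER* (AT3G42170, symbol HAT in the files), a gene derived from a hAT transposase that is needed for plant development, which was in all 6 lists. It also misses AT2G06420, in 4 lists, which RefSeq names a putative En/Spm-like transposon, and other misses were not searched for. Near-identical copies of such genes can share reads. The repeated share of 31-mers in the windows of the 7 ran from 0.838% (AT2G13500) to 56.9% (AT1G40087), and it was 4.61% for *DAYSLEEPER*. Which copy carried a peak is least certain where that share is high.

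The mitochondrial insertion of chromosome 2 was listed at few of its genes. In TAIR10.1 it appeared as 94 consecutive protein-coding genes over 264 kb (chr2:3239693-3503476) whose windows shared at least 50% of their 31-mers with the mitochondrial genome. Of these, 9 were listed (9.57%) and 7 were in all 6 lists (7.45%), whereas in the rest of the chromosome 2 stretch 71 of 267 genes were listed (26.6%) and 19 were in all 6 (7.12%). The listed share in the insertion was thus close to the 8.71% outside the stretches, and the share in all 6 lists was close to that of the stretch around it. Whether the authors' annotation held each of the 94 genes is not given in the sources used here.

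The closeness of the insertion to the mitochondrial genome is shown by AT2G07715, which was in all 6 lists and is described as a large subunit ribosomal protein L2. The first 120 bases of its coding sequence, at chr2:3411180-3411299 on the plus strand, are printed with the start codon in capitals. The mitochondrial genome carries them with 0 differences.
AT2G07715 coding start: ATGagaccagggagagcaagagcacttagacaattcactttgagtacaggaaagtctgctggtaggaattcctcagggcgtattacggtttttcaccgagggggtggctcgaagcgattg

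Listed genes of the insertion tended to be less close to the mitochondrial genome than unlisted ones. The mitochondrial share of the window had a median of 96.1% for the 9 listed genes (77.4% to 97.9%) and 98.0% for the 85 unlisted genes, of which 5 were below the median of the listed and 47 were above the highest listed value. AT2G07672 (77.4%) and AT2G07773 (87.7%) were in all 6 lists and AT2G07613 (83.7%) in 5, and these 3 lie near one end of the insertion. Farther in, AT2G07642 (95.1%), AT2G07715 (96.9%), AT2G07652 (96.9%), AT2G07656 (96.1%) and AT2G07659 (97.9%) were in all 6 lists, and AT2G07626 (97.9%) was in 3. Reads of mitochondrial DNA can match these loci, the amount of such DNA in each library is unknown, and its part in the listings was not tested.

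**Figure D5:**
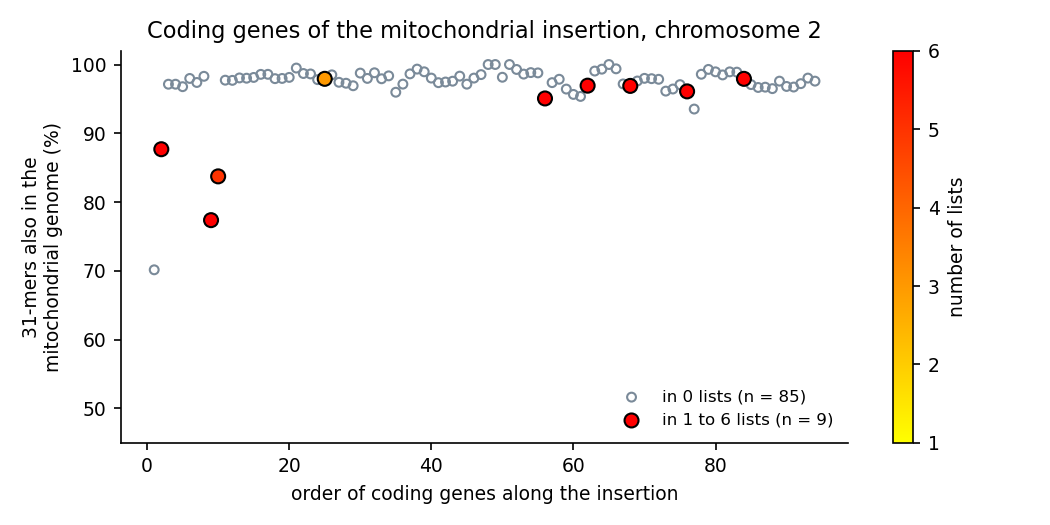
Share of 31-mers also found in the mitochondrial genome, for the 94 protein-coding genes of the chromosome 2 insertion in their order along the chromosome; open circles are the 85 unlisted genes and filled circles the 9 listed genes, coloured by number of lists. Of the 9 listed genes, 3 lie near the left end with shares of 77.4% to 87.7%, and 6 lie farther along at 95.1% to 97.9%.

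Around the insertion, the loci numbered AT2G07xxx gave 5 more members, for 14 of 124 genes in all. *MCM5* (AT2G07690), a subunit of the replicative DNA helicase, and AT2G07440, described as a response regulator, were in all 6 lists with no mitochondrial 31-mer in their windows. AT2G07565, with a Ycf1 domain, was in 4 lists, AT2G07505 in 2 (plant 2 against both controls) and AT2G07800 in 1. Leaving out all loci of this number series changed the share of stretch genes listed from 25.0% to 26.5%.

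Most members were poorly characterised. In the files 222 of the 323 members (68.7%) had no gene symbol, against 51.3% of listed genes outside, and among members in all 6 lists the share was 74.2% (69 of 93), against 44.4% outside. The stretches ranged from 54.9% without a symbol on chromosome 4 to 76.1% on chromosome 3, with 69.5% on chromosome 1, 73.8% on chromosome 2 and 75.0% on chromosome 5. A scarcity of symbols was common to the stretches as a whole, since by the RefSeq annotation 78.4% of their unlisted and 73.7% of their listed genes had no symbol, against 61.7% and 59.2% outside. Members without a symbol were in all 6 lists in 31.1% of cases and members with one in 23.8%, compared with 12.7% and 16.7% outside. Products described as hypothetical, unknown or of unknown domain made up 122 members (37.8%) and 554 listed genes outside (24.3%). Families were counted by words in the descriptions, each member under the first word list that matched. Kinase words matched 10 members (3.10%, against 3.56% outside) and transcription factor words 10 (3.10%, against 3.07%). Mitochondrial, respiratory or ribosomal words matched 11 (3.41%, against 4.39%), F-box words 4 (1.24%, against 1.84%) and disease resistance words 1 (0.310%, against 1.71%). These are counts of words and not of proteins. Kinase words took in AT3G43153, a kinase inhibitor-like protein, while *PHL1* and *FBW2* matched none of these lists. Mitochondrial words took in AT2G09838, AT3G32896 and AT5G29070 for a stated location alone. The latter are left out of the 122, though the word unknown is in each description. The first unnamed members in all 6 lists were, by locus number, AT1G35215, AT1G36756 and AT1G37020, AT2G05160, AT2G06095 and AT2G06675, AT3G32150, AT3G32896 and AT3G32904, AT4G04260, AT4G04265 and AT4G05040, and AT5G28590, AT5G28690 and AT5G29070.

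The 24 members in all 6 lists that had a symbol were spread over all stretches. On chromosome 1 they were *HCS2*, a holocarboxylase synthetase that attaches biotin to enzymes, *BZIP60*, a transcription factor of the endoplasmic reticulum stress response, *PTB3*, a regulator of RNA splicing, and *Aty2*. *PTB3* and *BZIP60* lie in windows nearly free of repeats, with 0.0263% and 0.385% of repeated 31-mers, whereas the share was 19.98% for *HCS2* and 14.1% for *Aty2*. *ACC1*, the cytosolic acetyl-CoA carboxylase that supplies fatty acid elongation, was in 5 lists, and its neighbour *ACC2*, a near copy, was in 1. The auxin response factor genes *ARF20* and *ARF15*, from a cluster of close copies, were in 1 and 2 lists, with 29.5% and 36.0% of repeated 31-mers in their windows, and their calls are uncertain.

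Chromosome 2 had *LHCB2.1*, an antenna protein of photosystem II, *SBT1.8*, a subtilisin-like protease, *PLA2-ALPHA*, a phospholipase A2, *MCM5*, *CRCK3*, a calmodulin-binding receptor-like cytoplasmic kinase, and *SERK4*, a co-receptor kinase of brassinosteroid and immune signalling, in all 6 lists. *LHCB2.2*, the near-identical neighbour of *LHCB2.1*, was in 1 list, plant 2 against C2, and reads may be split between the pair. *OPR3*, an enzyme of jasmonate synthesis, was listed for the 3 memory plants against C2 and for 0 against C3. That pattern was found for 16 members (4.95%) and for 141 listed genes outside (6.19%). On chromosome 3, *DAYSLEEPER*, *PRK3*, a pollen receptor-like kinase, and *AtGH9A4*, an endoglucanase that acts on cell wall glucans, were in all 6. *CHR38*, also known as *CLSY1*, a remodeller that brings RNA polymerase IV to sites of RNA-directed DNA methylation, was in the 2 lists of plant 1.

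Chromosome 4 had the most, with 9. They were *PUX4*, a partner of the CDC48 segregase, *ATG8B*, a protein of autophagosome formation, *UBQ11*, a polyubiquitin, *PSBQ2*, a subunit of the oxygen-evolving complex, *KNAT1*, a homeobox regulator of the shoot meristem, *MEKK1*, a kinase at the head of an immune signalling cascade, *PUP13*, a purine permease, *NLP2*, a nitrilase-like protein, and *FBW2*, an F-box protein that acts on ARGONAUTE1. Their windows ranged from 0.752% repeated 31-mers for *ATG8B* to 13.5% for *MEKK1*. *CRY1*, the blue light receptor, was in the 2 lists of plant 3. On chromosome 5, *WNK9*, a kinase of the WNK family, and *PHL1*, a transcription factor of the phosphate starvation response, were in all 6 lists. Of the 24, *Aty2*, *MEKK1* and *WNK9* lay within 2 kb of repeat A.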

How the data were processed

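The authors' deposited files were 6 gene lists, 1 per memory plant and control, each holding a locus identifier, a symbol (Name) and a description for genes with a peak within 2 kb. They hold presence or absence and no count, height or p-value. Per the labels, reads were trimmed with Trim Galore 0.4.1 and cutadapt 1.9.1 and aligned with Bowtie2 to TAIR10. The peak caller, its threshold and the treatment of reads with several places are not given in the sources used here. These bear on repeats and on the mitochondrial insertion. The file columns that belong to no sample of the series numbered 0.

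Locus tags were looked up in RefSeq's TAIR10.1 annotation, with 0 unmatched and 0 organelle genes among those listed. Coordinates are of genes or repeats and not of peaks. Canonical 31-mers were counted over the 5 nuclear chromosomes, and over the mitochondrial genome, with numpy 2.4.6 and pandas 2.3.3. Repeats were extended from exact copies of a 31-mer with at least 14 different 3-mers while the mean agreement of copies stayed above 50%, and their copies were places with at least 20 different consensus 17-mers. The k-mer and repeat searches were tested on simulated sequence with known insertions.

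Every comparison is a description with no test. The members and word lists were chosen with earlier results of these data known, and the repeats after the lists had been examined. The genes named are members with a symbol in all 6 lists, the loci numbered AT2G07xxx, the transposon-like members, the first 3 unnamed members in all 6 lists of each stretch, the longest run of each stretch, and *MEKK1*, *CHR38* and *CRY1*. Genes near repeat A, the neighbours of named genes, *OPR3* and the families in the closing section were chosen after their values were seen. So were the genes named for what a word list takes in or misses, *DAYSLEEPER* among them. Alternatives left out a memory plant or a control, moved the bounds by 1000 locus numbers, dropped AT2G07xxx loci, merged adjacent listed genes, or changed the denominator or the word list.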

Additional observations from a re-analysis of the deposited data

How the results depend on the processing

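With each memory plant left out in turn the number of members ran from 259 to 300, those in all remaining lists from 99 to 105, those without a symbol from 179 to 210, those with a transposon-like product from 4 to 7, and the listed share of stretch genes from 20.1% to 23.2%. With the lists against C2 alone that share was 21.0%, and with those against C3 alone 19.1%. Narrowing each stretch by 1000 locus numbers at both ends gave 157 members, 59 in all 6 lists, 121 without a symbol and 4 with a transposon-like product, but a share of 27.2% against 9.09% outside. Widening gave 468 members and a share of 21.5% against 8.44% outside, so the ratio lay between 2.55 and 2.99 for the 3 sets of bounds. Merging adjacent listed genes gave 291 members and a share of 23.1%. With all annotated loci as denominator the share was 5.93%, since pseudogenes and RNA genes are in no list. The share outside was not computed on that denominator, so whether the excess of the stretches holds there is not known. The wider word list gave 11 transposon-like members. A looser copy definition for repeat A, chosen after seeing the data (5 consensus 17-mers), put 34 genes within 2 kb of which 32 were listed, and a stricter one (50) put 16, of which 16 were listed. No paired analysis was possible because presence or absence came from 1 library against 1 library, with no replicate value per gene. Unknown depth limits every share, and a gene in 0 lists is not shown to lack open chromatin.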

Other observations

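Small secreted-protein genes were among the members. By description 5 members were defensin-like, a family of cysteine-rich peptides known from defence and pollination. They were found with a word list that also takes in other cysteine-rich products. It matched 1.55% of members and 8 of the 2277 listed genes outside (0.351%), so the 8 are not a count of defensin-like genes. Such genes were also more frequent in the stretches as a whole. By RefSeq product they made up 4 members (1.24%), 7 unlisted stretch genes (0.723%), 1 listed gene outside (0.0439%) and 0.390% of all 26153 genes outside. AT4G08028, which RefSeq names an Hsp40/DnaJ chaperone, and AT5G35195 were in all 6 lists, AT3G33187 in 4, AT5G32619 in 3 and AT4G08485 in 2. AT4G08028, AT3G33187 and AT4G08485 are also among the genes within 2 kb of repeat A.

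On chromosome 5, 4 genes described by the same domain of unknown function, DUF784, were listed close together at chr5:13197604-13225315. Unlisted DUF784 genes were not counted, in the stretch or elsewhere, so the listed share of the family is not known. AT5G34885 and AT5G34908 were in all 6 lists, AT5G34887 in 3 (plant 1 against C2 and plant 3 against both controls) and AT5G34881 in 1. The repeated share of their windows was 76.2%, 32.8%, 70.8% and 69.2% in the same order, and calls on single genes of such a group of copies are uncertain.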
